A study of Mus musculus with 18 samples.

Results

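The fatty acid and retinol binding proteins described here are Fabp1, Fabp2, Fabp5, Fabp6, Rbp2, Rbp4 and Rbp7. They were chosen by name as 7 of the 32286 gene features counted in 8 single-cell RNA-seq libraries of mouse ileal epithelium. The question was in which cells each gene is expressed, in what order the genes come on between the Lgr5+ stem cell and the enterocyte, and whether deletion of Setdb1 changes them. Setdb1 is a histone methyltransferase that deposits H3K9me3, a mark of silent chromatin.

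The 4 groups were C57Bl6 mice aged 60 to 65 days, with 2 libraries in each. Lgr5+WT cells carried the Lgr5-GFP-CreERT2 knock-in allele, and Lgr5+Setdb1KO cells carried it with Setdb1lox/lox. The lineage-traced WT and lineage-traced Setdb1-KO cells had the same alleles and also the nTnG reporter, with which a cell and its descendants turn on nuclear GFP after recombination. All mice, controls included, received 1 injection of 70 mg/kg tamoxifen and were analysed 5 days later, when GFP+ cells of ileal crypts were sorted. The Lgr5 promoter drives Cre, so recombination starts in Lgr5+ cells, and the knock-in allele is known to be silent in part of the crypts. The other assays of the series were not used here. Within each pair of values below, the order is replicate 1 and then replicate 2. The study's methods describe the libraries of a group as biological replicates. Each p-value rests on a spread between such libraries that is estimated with pooling over all genes tested. It therefore does not measure the spread of the single gene between the 2 libraries of a group.

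Between 2894 and 11423 barcodes per Lgr5+ library were kept, with 1000 to 18000 UMIs (unique molecules counted) and under 5% mitochondrial UMIs. Between 3882 and 10239 barcodes per lineage-traced library were kept, with 500 to 18000 UMIs. Median UMIs per kept barcode were 4686 to 9336 in the Lgr5+ libraries and 961 to 2085 in the lineage-traced libraries. No pair of libraries shared more than 0.449% of the barcodes of the smaller one. Setdb1 itself was at 11.3 and 9.93 CPM (its UMIs for each 1000000 UMIs) in Lgr5+WT and at 5.32 and 6.21 CPM in Lgr5+Setdb1KO (-0.85 ± 0.14 on the log2 scale, adjusted p = 0.0470, edgeR). In the lineage-traced sort it was at 6.11 and 4.21 CPM in WT and at 10.4 and 7.85 CPM in the libraries labelled Setdb1-KO, which is not lower. These 3′ tags lie outside the deleted part of the gene and so do not check the labels of either sort. Paneth markers took 3254 and 2981 of every 10000 UMIs in lineage-traced WT, against 704 and 475 in lineage-traced Setdb1-KO and 88.1 to 331 in the Lgr5+ libraries. The 2 lineage-traced WT libraries therefore stand apart, and by this marker free RNA made up an estimated 21.9% and 25.7% of their stem class UMIs, against 9.79% to 11.8% in lineage-traced Setdb1-KO and 3.02% to 4.90% in the Lgr5+ libraries.

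Fatty acid binding proteins are small cytosolic proteins that hold fatty acids, bile acids or other lipids in a barrel-shaped pocket. Fabp1 (the liver type) and Fabp2 (the intestinal type) are both abundant in enterocytes, where they carry dietary fatty acids away from the brush border. Fabp6, the ileal bile acid binding protein, carries bile acids through the enterocytes of the distal small intestine after the transporter Slc10a2 has taken them up, and the Slc51a-Slc51b pair exports them into the blood. Fabp5 is the epidermal type. Rbp2 and Rbp7 are cytosolic retinol binding proteins of the same fold, and Rbp2 presents dietary retinol for esterification in the enterocyte. Rbp4 is the secreted carrier of retinol in plasma.

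Stretches of the promoters of the 4 members that lead in enterocytes are shown because the results below turn on these genes. Each runs 5′ to 3′ over the 250 bases before the RefSeq start of the gene on GRCm38.p6. Capitals mark matches on either strand to the letters of 6 motifs, named for the factors known to bind such letters. The TATA box core is TATAAA. The CDX-type motif is TTTATNG. The HNF4-type core is CAAAGT. The HNF1-type core is GTTAAT. The GATA-type motif is AGATAA. The nuclear receptor inverted repeat is GGTNANTNACC.
Fabp1, chr6:71199629-71199878, plus strand: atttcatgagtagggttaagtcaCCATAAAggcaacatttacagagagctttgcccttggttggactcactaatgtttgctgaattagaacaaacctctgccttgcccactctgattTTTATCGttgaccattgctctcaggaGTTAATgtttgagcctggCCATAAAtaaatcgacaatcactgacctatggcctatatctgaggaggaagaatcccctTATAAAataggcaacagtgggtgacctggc
Fabp2, chr3:122894822-122895071, plus strand: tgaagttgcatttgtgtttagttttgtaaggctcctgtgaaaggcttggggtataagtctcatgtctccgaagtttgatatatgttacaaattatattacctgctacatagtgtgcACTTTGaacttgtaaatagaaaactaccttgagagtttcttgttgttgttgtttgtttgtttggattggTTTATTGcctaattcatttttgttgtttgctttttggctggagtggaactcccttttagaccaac
Fabp6, chr11:43601563-43601812, minus strand: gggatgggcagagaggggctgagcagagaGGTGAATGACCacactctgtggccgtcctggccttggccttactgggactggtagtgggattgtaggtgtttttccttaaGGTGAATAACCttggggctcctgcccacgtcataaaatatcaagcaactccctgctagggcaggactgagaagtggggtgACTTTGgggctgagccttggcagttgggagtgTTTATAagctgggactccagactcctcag
Rbp2, chr9:98490287-98490536, plus strand: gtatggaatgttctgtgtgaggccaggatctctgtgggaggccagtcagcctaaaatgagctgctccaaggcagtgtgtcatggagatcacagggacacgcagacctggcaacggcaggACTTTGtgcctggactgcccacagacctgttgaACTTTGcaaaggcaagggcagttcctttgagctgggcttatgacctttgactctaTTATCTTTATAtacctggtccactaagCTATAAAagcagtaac
Counted from the start, the Fabp1 stretch held a TATA box core at -30, CDX-type matches at -227, -133 and -89 and an HNF1-type match at -107. The Fabp2 stretch held a CDX-type match at -65 and an HNF4-type match at -134. The Fabp6 stretch held a TATA box core at -29, an HNF4-type match at -61 and inverted repeats at -221 and -141. In the Rbp2 stretch a TATA box core at -38 overlapped a GATA-type match at -43, another at -15 overlapped a CDX-type match at -16, and HNF4-type matches stood at -131 and -98. Of 32851 RefSeq promoter windows of 300 bases, which also take in 50 bases after the start, 13.6% held the TATA box core, 10.9% the CDX-type motif, 14.4% the HNF4-type core, 7.10% the HNF1-type core and 11.2% the GATA-type motif. The inverted repeat was searched after the Fabp6 stretch had been read, and 86 windows (0.262%) held it. A match of letters is a description and not a binding site. The windows of Rbp4 and Rbp7 are not shown, and Fabp5 had no window in the table used.

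Barcodes were placed in classes by the UMIs of fixed marker genes, none of which is a member of the 7. The classes are stem (Lgr5, Olfm4 and others), dividing (Mki67, Top2a and others), enterocyte (Alpi, Sis and others), goblet, Paneth, enteroendocrine, tuft and T cell, and a barcode under every limit stayed unplaced. The enterocyte class held 327 and 462 barcodes in Lgr5+WT, 296 and 949 in Lgr5+Setdb1KO, 921 and 225 in lineage-traced WT, and 27 and 131 in lineage-traced Setdb1-KO. A class is a range of a marker share and not a sharp type: in Lgr5+WT replicate 1, 277 barcodes had a marker share within 25% of the enterocyte limit. Barcodes over both the stem and the dividing limit were placed in dividing, where stem markers were at 43.6 and 35.5 per 10000 UMIs in Lgr5+WT.

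Fabp1, Fabp2 and Rbp2 were among the most abundant of the 7 genes in the enterocyte class of every library (UMIs of 3′ libraries do not scale with transcript length), and Fabp5 and Rbp4 had their highest level in the enteroendocrine class. Fabp1 in the enterocyte class was at 4010 and 8678 CPM in Lgr5+WT, 12343 and 6516 CPM in Lgr5+Setdb1KO, 7994 and 6711 CPM in lineage-traced WT, and 17260 and 13228 CPM in lineage-traced Setdb1-KO. Rbp2 in the same class was at 4761 and 6145, 13096 and 8109, 11624 and 9049, and 5955 and 9031 CPM in the same order of groups. Fabp2 was at 2904 and 3164, 8017 and 4269, 12337 and 11152, and 4667 and 5522 CPM. For all 3 genes the lowest enterocyte library lay above every library of the stem, dividing, goblet, Paneth and enteroendocrine classes.

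**Figure D1:**
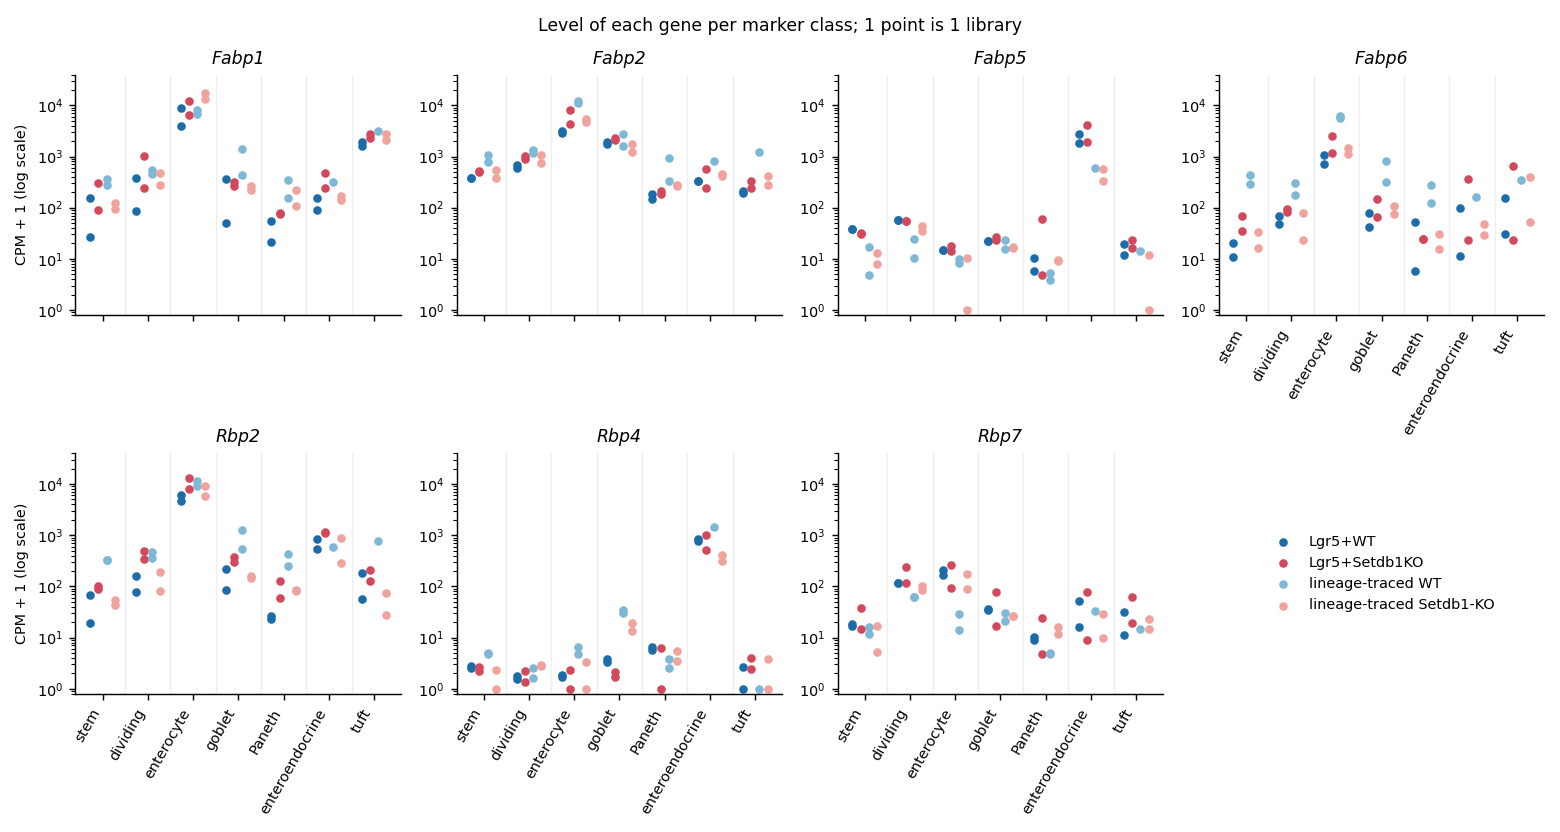
CPM of the 7 genes on a log axis (1 CPM added) in each class, with 1 point for each library of the Lgr5+ and lineage-traced sorts. Fabp1, Fabp2, Fabp6 and Rbp2 are highest in the enterocyte class of most libraries, while Fabp5 and Rbp4 stand out in the enteroendocrine class and Rbp7 in the enterocyte class lies above the dividing class in Lgr5+WT and below it in lineage-traced WT.

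Fabp1, Fabp2 and Rbp2 each had a different class next in order, while Fabp6 had overlapping levels in its next classes (22.6 to 640 CPM in tuft and 46.7 to 95.2 CPM in dividing cells of the Lgr5+ libraries, the T cell class left aside). Fabp1 came next in tuft cells, the chemosensory cells marked by Dclk1 and Trpm5, with 1948 and 1607 CPM in Lgr5+WT and 2696 and 2262 CPM in Lgr5+Setdb1KO. These values exceeded the goblet, stem and dividing values of all 4 Lgr5+ libraries, which reached 1020 CPM at most. Over the 4 Lgr5+ libraries, tuft exceeded stem by 4.08 ± 0.40 (SE) on the log2 scale (adjusted p = 1.28e-10, by edgeR's quasi-likelihood test, Benjamini-Hochberg adjusted, as for every adjusted p here unless DESeq2 is named). After thinning each barcode to 1000 UMIs, 23.7% to 42.2% of tuft barcodes of the Lgr5+ libraries had a Fabp1 UMI, against 3.07% to 10.6% of goblet barcodes (unthinned, 36.8% to 64.7% against 13.3% to 44.3%; median UMIs 3190 to 6691.5 in tuft and 4250 to 8236.5 in goblet barcodes). Free RNA made up an estimated 3.29% to 5.66% of the UMIs of these tuft classes, and Fabp1 was at 295 to 2404 CPM in the free RNA.

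Fabp2 came next in goblet cells, the mucus-secreting cells, at 1885 and 1725 CPM in Lgr5+WT and 2277 and 2059 CPM in Lgr5+Setdb1KO, above the dividing class of all 4 libraries (598 to 1001 CPM). Over the 4 Lgr5+ libraries, goblet exceeded stem by 2.34 ± 0.18 (adjusted p = 1.75e-13). At 1000 UMIs per barcode, 77.3% to 84.1% of goblet barcodes had a Fabp2 UMI, close to the 83.2% to 94.9% of enterocyte barcodes, whereas 10.2% to 21.7% of tuft barcodes did. Fabp2 was at 944 to 2133 CPM in the free RNA. The Paneth marker estimate of free RNA was 15.5% to 27.8% for the goblet class, against 3.02% to 4.90% for the stem class of these libraries. It counts every Paneth marker UMI of a class as free RNA, so any made in goblet barcodes themselves would raise it. Rbp2 came next in the enteroendocrine class, the hormone-secreting cells, at 856 and 539 CPM in Lgr5+WT and 1147 and 1114 CPM in Lgr5+Setdb1KO, 3.34 ± 0.26 above stem on the log2 scale (adjusted p = 3.38e-13). Its goblet and dividing levels overlapped, at 82.4 to 375 and 77.2 to 482 CPM.

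Fabp5 and Rbp4 were enteroendocrine genes in these libraries. Fabp5 in that class was at 2760 and 1826 CPM in Lgr5+WT and 4067 and 1921 CPM in Lgr5+Setdb1KO, and it was at 13 to 16.6 CPM in the enterocyte class of the same libraries. Rbp4 in the enteroendocrine class was at 772 and 838 CPM in Lgr5+WT and 1008 and 504 CPM in Lgr5+Setdb1KO, and at most 5.57 CPM in any other class of the Lgr5+ sort. Over the 4 Lgr5+ libraries the enteroendocrine class exceeded stem by 5.65 ± 0.15 for Fabp5 and by 8.37 ± 0.16 for Rbp4 on the log2 scale (adjusted p = 1.36e-26 and 5.79e-30). That class held 2.18% to 6.08% of the kept Lgr5+ barcodes but 42.3% to 81.1% of the Fabp5 UMIs and 90.1% to 97.8% of the Rbp4 UMIs. In the lineage-traced sort Fabp5 reached 605 CPM in the enteroendocrine class of WT replicate 1 and 337 and 569 CPM in Setdb1-KO, and Rbp4 reached 1454, 309 and 410 CPM. The enteroendocrine class of lineage-traced WT replicate 2 has 19 barcodes and was left out. Rbp4 was also seen in the lineage-traced goblet class, at 33.7 and 29.8 CPM in WT and 12.2 and 18.6 CPM in Setdb1-KO, against 0.73 to 2.78 CPM in the Lgr5+ goblet class.

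Relative to stem, 5 of the 7 genes were higher and 1 lower in goblet cells, 4 were higher and 1 lower in enteroendocrine cells, and 3 were higher and 2 lower in tuft cells of the Lgr5+ libraries. Of all genes tested, 66.3%, 64.4% and 45.7% differed in these comparisons, so the counts themselves are not particular to the 7 genes. Fabp5 was the gene lower in goblet cells (-0.42 ± 0.16) and Fabp2 the gene lower in enteroendocrine cells (-0.81 ± 0.19), and both were lower in tuft cells (-1.21 ± 0.30 and -1.13 ± 0.20). Fabp5 missed the threshold in goblet cells without Lgr5+WT replicate 1 (-0.39, 0.0859) or 2 (-0.34, 0.0956), and Fabp1 (1.08 ± 0.36) without Lgr5+WT replicate 2 (0.93, 0.0572). In tuft cells Fabp6 (2.35 ± 0.55) missed it without Lgr5+Setdb1KO replicate 1 (1.11, 0.106) and Rbp2 (0.81 ± 0.30) without Lgr5+WT replicate 2 (0.71, 0.0918) or Lgr5+Setdb1KO replicate 1 (0.73, 0.108), with barcodes of 2 classes left out (0.43, 0.261) and with the class limits halved (0.53, 0.165). The Fabp6 value for enteroendocrine cells (1.62 ± 0.55, adjusted p = 0.0106) turned to -0.35 without Lgr5+Setdb1KO replicate 2 and missed the threshold without Lgr5+WT replicate 1 (1.51, 0.0604). Without Lgr5+Setdb1KO replicate 1, Fabp1 (1.11, 0.0132) and Rbp7 (0.56, 0.0273) passed as higher in enteroendocrine cells. Of the other family members fixed as a list, 2 of 2 tested were higher in enteroendocrine cells, among them Fabp3, the heart type (4.62 ± 0.52).

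Rbp7 did not follow the other retinol binding proteins. In the dividing class it was at 116 and 114 CPM in Lgr5+WT and 113 and 239 CPM in Lgr5+Setdb1KO, and in the enterocyte class at 211 and 164 CPM and at 92.1 and 260 CPM. The stem class was at 17.4 and 15.8 CPM and at 13.7 and 36.3 CPM, below the dividing class of every Lgr5+ library, while the dividing and enterocyte ranges overlapped.

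From stem to dividing to enterocyte, the genes came on at different points. In the stem class of Lgr5+WT, Fabp2 was already at 374 and 377 CPM, while Fabp1 was at 26.2 and 155, Rbp2 at 18 and 65.8, Fabp6 at 19.3 and 9.97 and Rbp7 at 17.4 and 15.8 CPM. In the dividing class of Lgr5+WT, Fabp2 was at 598 and 689 CPM, Fabp1 at 83.5 and 380, Rbp2 at 77.2 and 156 and Fabp6 at 66.6 and 46.7 CPM. In WT, Rbp7 rose from stem to dividing by 2.78 ± 0.10 on the log2 scale (6.89-fold, adjusted p = 1.82e-13), the largest step of the 7 genes on the UMIs as counted. With free RNA subtracted, that of Fabp6 was larger (4.56 at 5% and 3.96 at the Paneth marker estimate, against 3.16 and 3.10 for Rbp7). Fabp6 rose by 1.97 ± 0.18, Rbp2 by 1.51 ± 0.22, Fabp1 by 1.37 ± 0.24, Fabp2 by 0.76 ± 0.13 and Fabp5 by 0.61 ± 0.08 (adjusted p at most 0.00025). Barcodes rich in Fabp6, by the limit given below, numbered 5 and 3 in the dividing class of Lgr5+WT and 0 and 0 in its stem class. Rbp4, with 0.38 to 1.74 CPM in these classes, differed by -1.27 ± 0.51 (adjusted p = 0.0622) and passed as lower without Lgr5+Setdb1KO replicate 1 (-1.23, 0.0338) or 2 (-1.25, 0.0324), from WT libraries alone (-1.25, 0.0267) and with the class limits halved (-1.26, 0.0475) or doubled (-1.73, 0.0261). In all, 6 of 7 members were higher in dividing cells, and 33.7% of all genes tested differed in either direction.

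In the next step, from dividing to enterocyte, Rbp2 and Fabp1 led and Rbp7 fell back in the order. In WT, Rbp2 rose by 5.85 ± 0.22 on the log2 scale (57.8-fold), Fabp1 by 5.28 ± 0.26 (38.8-fold), Fabp6 by 4.15 ± 0.14 (17.8-fold) and Fabp2 by 2.45 ± 0.13 (5.46-fold), with adjusted p at most 6.47e-12. Rbp7 rose by only 0.90 ± 0.09 (adjusted p = 3.34e-08), and Fabp5 fell by 1.87 on the log2 scale (SE 0.13, adjusted p = 5.25e-10). Rbp4 differed by 0.44 ± 0.90 (adjusted p = 0.696). The counts were 5 higher and 1 lower of 7, and 56.8% of all genes tested differed. The rise of Rbp7 depended on where the class starts: with the class limits doubled it turned to -0.48 (adjusted p = 0.0181).

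In the lineage-traced WT libraries Fabp1, Fabp2, Fabp6 and Rbp2 also rose into the enterocyte class, by 4.13 ± 0.19, 3.46 ± 0.18, 4.89 ± 0.17 and 4.86 ± 0.19 on the log2 scale. Fabp6 and Rbp2 led there, and the sizes were not tested against those of the Lgr5+ sort. Rbp7 there was lower in the enterocyte class (-1.57 ± 0.28, adjusted p = 1.19e-07), and so was Fabp5 (-0.95 ± 0.43, adjusted p = 0.0493), among 54% of all genes tested that differed. From stem to dividing, Rbp7 rose by 2.31 ± 0.38 and Fabp1 by 0.61 ± 0.19, while Fabp6 fell by 0.72 (SE 0.18), and 5.29% of all genes tested differed. Several of these calls rested on single libraries. Without lineage-traced WT replicate 1 the Fabp6 value turned to 0.080, and Fabp1 (0.68, 0.741) and Rbp7 (1.97, 0.247) missed the threshold, as did Rbp7 (-0.87, 0.187) and Fabp5 (-0.079, 0.973) in the step to enterocytes. Fabp1 also missed it without WT replicate 2 (0.60, 0.626), and without Setdb1-KO replicate 2 so did Fabp6 (-0.69, 0.0628) and the Fabp5 step to enterocytes (-0.96, 0.0593). Fabp2 (0.48 ± 0.17, adjusted p = 0.0803) passed without Setdb1-KO replicate 1 (0.53, 0.0161) or 2 (0.50, 0.0439). The Fabp6 fall also missed the threshold from WT libraries alone (-0.72, 0.0930) and with free RNA subtracted at 5% (-0.80, 0.0800) or at the Paneth marker estimate (-0.89, 0.416). The Fabp5 step to enterocytes missed it from WT libraries alone (-0.996, 0.0516) and with free RNA subtracted at 5% (-0.99, 0.0544). At the Paneth marker estimate, Fabp2 (1.51, 7.06e-07) and Rbp2 (1.77, 0.00158) passed as higher in dividing cells. Enterocyte class barcodes had 148 and 134 enterocyte marker UMIs per 10000 in lineage-traced WT and 64.1 and 67.6 in Lgr5+WT. Their median UMIs were 1169 and 1491 against 8365 and 6623. Placement also needed at least 3 marker UMIs and more than free RNA would give, which a shallow barcode meets only at a higher share. The part of this rule in the higher marker share was not tested.

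A finer order was read from the share of enterocyte marker UMIs in barcodes of the stem, dividing, enterocyte and unplaced sets. In Lgr5+WT replicate 1, Rbp7 went from 42.4 CPM at 5 to 10 marker UMIs per 10000 to 199 CPM at 20 to 40 and 248 CPM at 40 to 80, and was back at 85.5 CPM at 80 to 160. In the same library and over the same 4 intervals, Rbp2 went from 14.2 to 340, 3189 and 11711 CPM, and Fabp1 from 15.6 to 286, 2725 and 10016 CPM. Rbp7 was at its highest in that library where Fabp1 and Rbp2 each had 27.2% of theirs. In Lgr5+WT replicate 2 it was also highest at 40 to 80, where Fabp1 had 49.5% and Rbp2 37.6% of their highest level. In all 4 Lgr5+ libraries Rbp7 reached 50% of its highest level in the interval from 20 to 40, and its level at 80 to 160 (22.1 to 124 CPM) was below that at 40 to 80 (132 to 353 CPM). Rbp2 reached 10% of its highest level only at 40 to 80 in all 4 libraries. Fabp2 never came from near 0, since 328 to 596 CPM were present in the lowest interval, and Fabp5 was highest in the lowest 3 intervals. The order Rbp7, then Fabp6, then Fabp1 and Rbp2 at 10% of the highest level held in Lgr5+WT replicates 1 and 2, while in Lgr5+Setdb1KO replicate 1 Fabp6 and Fabp1 reached it in the same interval. The Fabp6 levels rest on few barcodes, since 10 and 11 held 50% of its UMIs in Lgr5+WT. In Lgr5+WT replicate 2 Fabp6 went from 777 CPM at 40 to 80 to 1.71 CPM at 80 to 160. Whether its place in the order is a step of the same cells was not tested.

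**Figure D2:**
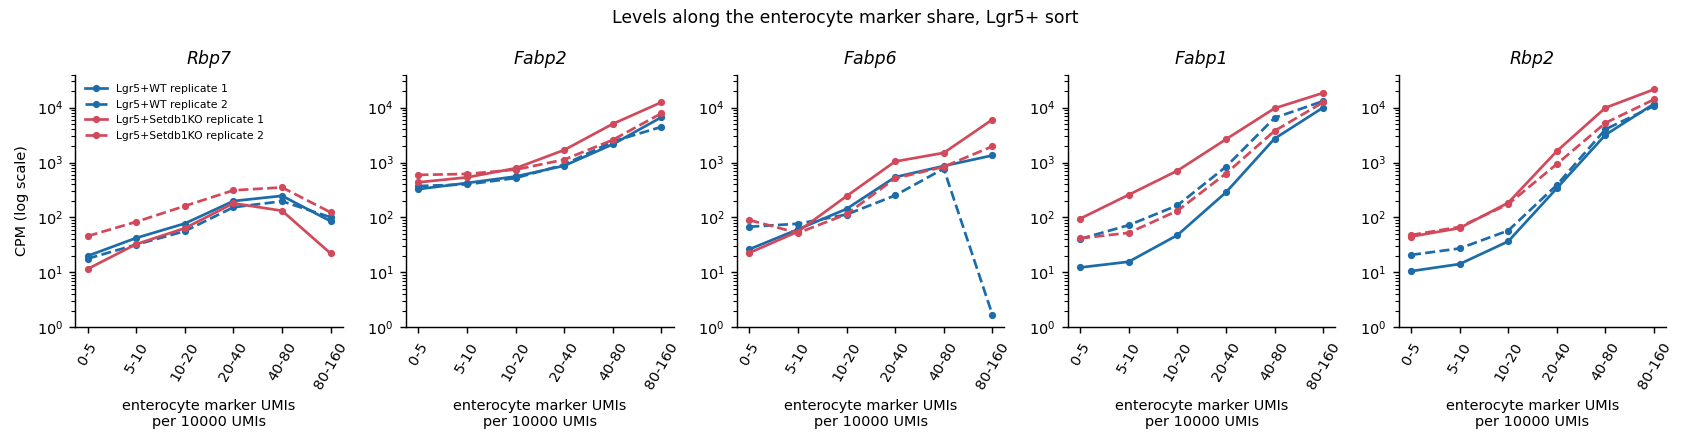
CPM of the members on a log axis against the share of enterocyte marker UMIs (per 10000 UMIs, in intervals that double) in the Lgr5+ libraries, 1 line for each library. Rbp7 is lower at 80 to 160 than at 40 to 80 in all 4 libraries, and in Lgr5+Setdb1KO replicate 1 it is already lower at 40 to 80 (132 CPM) than at 20 to 40 (181 CPM). Rbp2 and Fabp1 are still rising at 80 to 160, and the Rbp2 lines of Lgr5+Setdb1KO lie above those of Lgr5+WT from the lowest interval up to 160, on UMIs as counted.

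Fabp6 was concentrated in few barcodes, and in the Lgr5+ sort these were not the barcodes rich in Fabp1 and Rbp2. The counts that follow cover the stem, dividing, enterocyte and unplaced barcodes alone, which were 3719 and 4942 in Lgr5+WT and 2096 and 8554 in Lgr5+Setdb1KO. Among them 10 and 11 barcodes held 50% of their Fabp6 UMIs in Lgr5+WT, and 8 and 30 did in Lgr5+Setdb1KO. The same share of Fabp1 UMIs took 57 and 134 barcodes and 118 and 198 barcodes, and that of Fabp2 took 482 and 569 barcodes in Lgr5+WT and 133 and 1010 in Lgr5+Setdb1KO. A limit of 50 UMIs per 10000 and at least 5 UMIs, set after the values had been seen, gave 41 and 36 Fabp6-rich barcodes in Lgr5+WT and 39 and 110 in Lgr5+Setdb1KO. The same limit on the sum of Fabp1 and Rbp2 gave 177 and 404 and then 406 and 859 barcodes (4.76% and 8.17% and then 19.4% and 10.0% of those counted). Across these barcodes of the 4 libraries 1 met both limits. No test is given, since the sets were cut from the values themselves.

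In the same sets of the lineage-traced WT libraries 30 of 256 and 13 of 90 Fabp6-rich barcodes were also rich in Fabp1 and Rbp2 (11.7% and 14.4%), and none of 21 and 77 were in lineage-traced Setdb1-KO. Of all barcodes of these sets, 16.5% and 10.6% were rich in Fabp1 and Rbp2 in WT and 2.95% and 3.13% in Setdb1-KO. The WT overlap thus lies near the share over all barcodes, and with so low a share in Setdb1-KO an overlap of none says little. With a limit of 100 UMIs per 10000 the lineage-traced WT shares were 5.88% and 5.77%, and with a limit of 25 they were 17.9% and 31.0%. In these libraries Fabp6 in the free RNA was at 686 and 1336 CPM. Barcodes that met both limits are left out of the levels that follow.

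**Figure D3:**
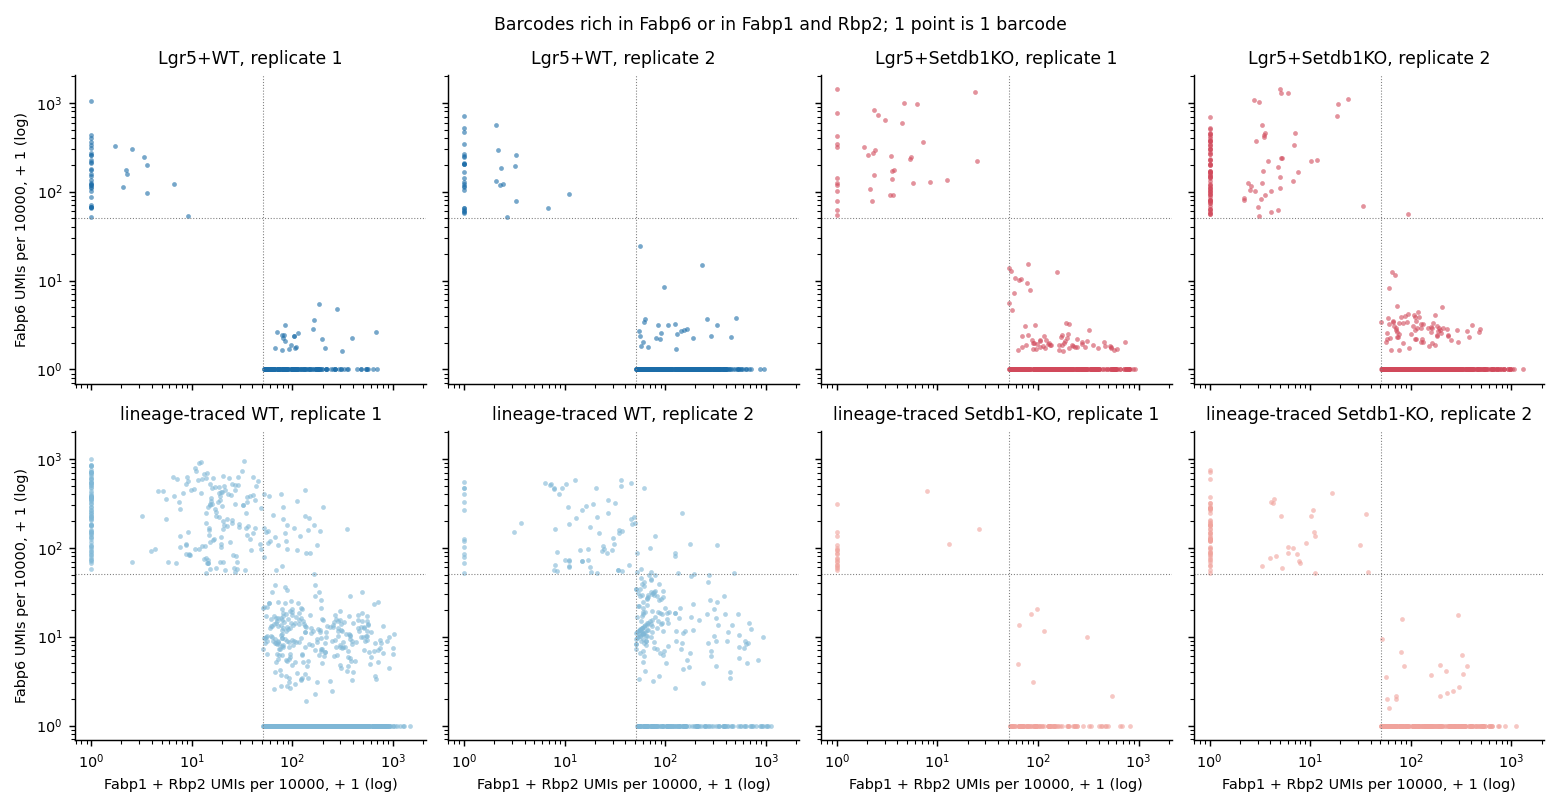
Fabp6 UMIs against the sum of Fabp1 and Rbp2 UMIs per 10000 UMIs in each stem, dividing, enterocyte or unplaced barcode over either limit, on log axes, for the 8 libraries. In the Lgr5+ libraries the barcodes lie along the 2 axes and 1 barcode meets both limits of 50, while lineage-traced WT has 30 and 13 barcodes over both.

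Fabp6 in Fabp6-rich barcodes was at 19038 to 34709 CPM in the Lgr5+ libraries, and in Fabp1/Rbp2-rich barcodes of the same libraries it was at 20.1 to 25.7 CPM, below its level in free RNA (243 to 795 CPM). Conversely, Fabp1 was at 28.9 and 53.2 CPM and Rbp2 at 40.5 and 36.6 CPM in the Fabp6-rich barcodes of Lgr5+WT. Fabp2 divided the sets less sharply. It was at 391 and 396 CPM in Fabp6-rich against 4151 and 3540 CPM in Fabp1/Rbp2-rich barcodes of Lgr5+WT, and at 8219 and 7645 against 10705 and 9972 CPM in lineage-traced WT.

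Of the bile acid list, Slc10a2, Slc51a, Slc51b and Nr1h4 were higher in the Fabp6-rich barcodes of all 8 libraries, and Abcc2 was lower in them in all 8. Slc10a2, the apical bile acid transporter, was at 95.5 and 26.6 CPM against 0 and 0 CPM in Lgr5+WT and at 225 and 117 against 4.02 and 14.8 CPM in lineage-traced WT. Slc51a was at 616 and 599 against 241 and 219 CPM in Lgr5+WT, and Slc51b at 359 and 359 against 86.1 and 66.4 CPM. Nr1h4, the bile acid receptor FXR, was at 95.5 and 56.6 against 24.5 and 16.9 CPM. Adh1 and Rdh7, of the retinoid list, went the other way in all 8 libraries. These genes of the pathway lists were picked for naming after their values had been seen. Adh1, a retinol dehydrogenase, was at 2.89 and 0 CPM in Fabp6-rich against 232 and 199 CPM in Fabp1/Rbp2-rich barcodes of Lgr5+WT, and Rdh7 was at 14.5 and 0 against 155 and 131 CPM. In triglyceride handling, Mttp, which loads lipid onto apolipoprotein B, was at 55.0 and 49.9 against 222 and 208 CPM, while Agpat2, an acyltransferase of glycerolipid synthesis, was at 422 and 459 against 330 and 301 CPM.

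**Figure D4:**
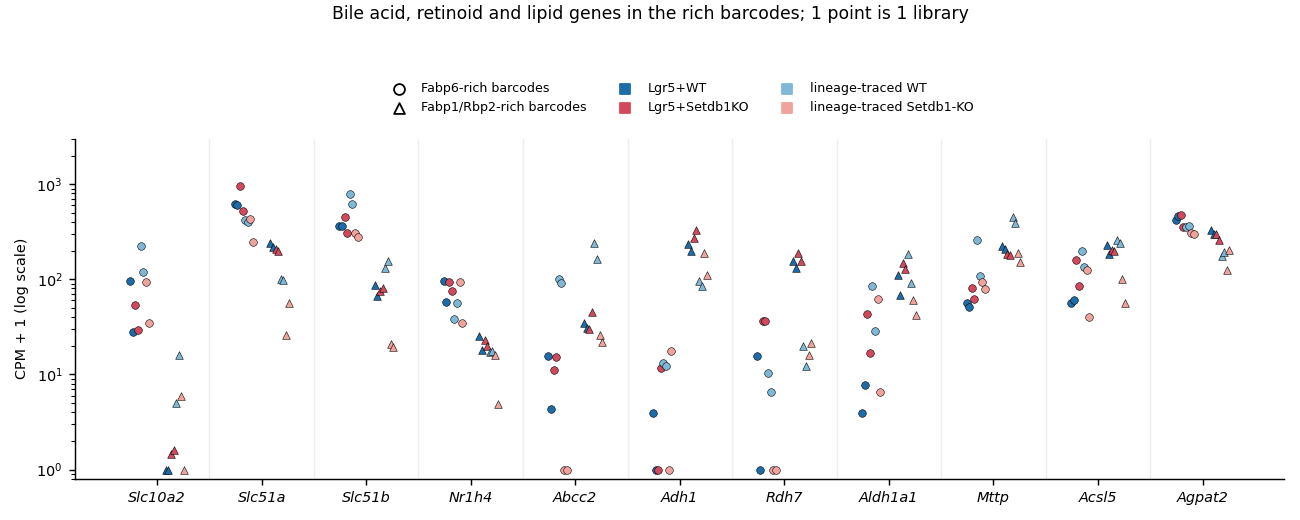
CPM on a log axis of bile acid, retinoid and lipid genes in Fabp6-rich barcodes (circles) and in Fabp1/Rbp2-rich barcodes (triangles) of each library, where points at 1 stand for 0 CPM. Slc10a2, Slc51a, Slc51b and Nr1h4 are higher in the Fabp6-rich barcodes of all 8 libraries, and Adh1 is lower in them in all 8.

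The 2 sets had similar depth, with median UMIs of 7982 and 7971 in Fabp6-rich and 8365 and 6793 in Fabp1/Rbp2-rich barcodes of Lgr5+WT. Enterocyte markers were at 36.1 and 28.1 per 10000 in the former and 70.1 and 66.0 in the latter, and stem markers at 2.17 and 1.70 against 1.38 and 3.14. In the Lgr5+ libraries most Fabp6-rich barcodes stayed unplaced (29 of 41, 25 of 36, 24 of 39 and 66 of 110), so the enterocyte class mostly describes Fabp1/Rbp2-rich barcodes. These made up 51.4% and 74.7% of it in Lgr5+WT and 90.2% and 71.5% in Lgr5+Setdb1KO, against 2.14% and 1.73% and then 4.05% and 3.48% for Fabp6-rich barcodes. How far this difference in the markers goes with the split was not tested.

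Deletion of Setdb1 was first examined over all kept barcodes of the Lgr5+ sort. All 7 genes had a higher fitted level in Lgr5+Setdb1KO and 0 of 7 passed the test, where 1.34% of all genes tested did. The median log2 difference of the 7 genes was 0.94, against -0.01 over all genes tested. Rbp2 was at 446 and 659 CPM in Lgr5+WT and 1997 and 1035 CPM in Lgr5+Setdb1KO, a difference of 1.44 ± 0.31 on the log2 scale (adjusted p = 0.0817). Fabp2 was at 924 and 949 against 1920 and 1260 CPM (0.76 ± 0.17, adjusted p = 0.0908), and Fabp6 at 242 and 169 against 566 and 279 CPM (1.04 ± 0.28, adjusted p = 0.125). The genotypes did not overlap for any of these 3 genes. Absence of overlap between 2 libraries and 2 is no better than p = 0.33 by exact permutation, here and below. How many of all genes tested show it was not counted. Fabp1 was at 394 and 1050 against 2271 and 821 CPM, with overlap (1.05 ± 0.55, adjusted p = 0.381). The enterocyte class held 66.1% to 79.2% of the Rbp2 UMIs and 65.0% to 75.5% of the Fabp1 UMIs of these libraries. For Fabp2 and Fabp6 it held at most 53.7%. This class had 327 of 4768 and 462 of 6133 kept barcodes in Lgr5+WT, against 296 of 2894 and 949 of 11423 in Lgr5+Setdb1KO. How far this goes with the levels of these 4 genes was not tested. Fabp5, at 76.2 and 69.7 against 187 and 84.5 CPM, and Rbp4, at 11 and 14.9 against 38.4 and 13.2 CPM, are the enteroendocrine members, and that class held 2.18% and 2.61% against 6.08% and 4.01% of kept barcodes. The part of this share in their levels was not tested. Rbp7 was at 87.4 and 77.6 against 66.9 and 162 CPM, with overlap (0.52 ± 0.38, adjusted p = 0.529). Its difference ranged from -0.35 to 1.05 over the alternatives, so its direction was not stable.

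The result over all barcodes rested on which Lgr5+Setdb1KO library was used. Without replicate 2, Rbp2 (1.79, adjusted p = 0.00763), Fabp6 (1.42, 0.00299), Fabp2 (0.98, 0.0244), Fabp5 (1.30, 0.000571) and Rbp4 (1.5, 0.00475) passed the test, and without replicate 1 only Rbp7 of the 7 did (1.05, 0.00361). DESeq2 called Fabp2 (0.76, adjusted p = 3.31e-06) and none of the other 6. An exact permutation test of 2 libraries against 2 cannot go below p = 0.33.

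Within the stem class, Fabp6 was the only member to pass the test, where 0.834% of all genes tested did. Its levels were 19.3 and 9.97 CPM in Lgr5+WT and 67.9 and 34.3 CPM in Lgr5+Setdb1KO (1.84 ± 0.32, 3.59-fold, adjusted p = 0.0369). This call came from very few barcodes. In Lgr5+Setdb1KO replicate 1, 268 of the 437 Fabp6 UMIs of the stem class were in 1 barcode, and the 5 highest barcodes held 79.4% of them, against 28.4% and 16.5% in Lgr5+WT. With the Fabp6-rich barcodes left out (1 and 2 in Lgr5+Setdb1KO, 0 and 0 in Lgr5+WT) the difference was 0.79 (adjusted p = 0.186), and with the class limits doubled it was 1.09 (0.372). It also missed the threshold with DESeq2 at about the same size (1.88, 0.170), and at a larger size with free RNA subtracted at 5% (3.55, 0.0636) or at the Paneth marker estimate (3.24, 0.0920). Fabp1 differed by 1.10 ± 0.70 (adjusted p = 0.518), with -0.035 to 3.00 over the alternatives. Rbp7 differed by 0.70 ± 0.33 (adjusted p = 0.393), with -0.24 to 1.18 over them. Rbp2 was at 18 and 65.8 against 87.0 and 102 CPM (1.19 ± 0.44, adjusted p = 0.281), and Fabp2 at 374 and 377 against 504 and 514 CPM (0.48 ± 0.10, adjusted p = 0.0737). Fabp2 passed with DESeq2 (0.49, 0.00111), with the class limits halved (0.51, 0.0434) and with a mitochondrial limit of 10% (0.50, 0.0495). Without Lgr5+WT replicate 2, Rbp2 (2.52, adjusted p = 9.70e-11), Fabp1 (3.00, 1.55e-05) and Fabp2 (0.56, 0.00646) passed. Without Lgr5+Setdb1KO replicate 2, Fabp1 (1.73, 4.99e-07) and Rbp2 (1.06, 0.000486) passed, and without replicate 1 Rbp7 did (1.18, 7.04e-05).

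Stem markers in the dividing class were at 43.6 and 35.5 per 10000 UMIs in Lgr5+WT and 25.2 and 20.6 in Lgr5+Setdb1KO. In the stem class they were at 88.5 and 78.8 against 64.1 and 58.2. The part of these differences in the members' levels was not tested. In the dividing class none of 6 tested members passed, where 0.614% of all genes tested did. Rbp2 came closest, at 77.2 and 156 CPM in Lgr5+WT against 482 and 342 CPM in Lgr5+Setdb1KO (1.80 ± 0.31, 3.49-fold, adjusted p = 0.0525), and the genotypes did not overlap. It passed in each of the 4 fits that leave out 1 library (1.35 to 2.46, adjusted p at most 0.000570) and with the class limits doubled (1.89, 0.0432) or halved (1.80, 0.0418). It also passed with a mitochondrial limit of 10% (1.81, 0.0415), with RLE normalization (1.81, 0.0480), without a filter on low counts and, close to the threshold, with free RNA subtracted at 5% (1.90, adjusted p = 0.04996) or at the Paneth marker estimate (1.88, 0.0498). It did not pass with DESeq2 (1.81, 0.119), with a replicate block (1.88, 0.135), with the lower UMI limit doubled or with barcodes of 2 classes left out. Fabp1 differed by 1.40 ± 0.73 (adjusted p = 0.448), with 0.07 to 2.96 over the alternatives. Rbp7 differed by 0.63 ± 0.28 (adjusted p = 0.376), with -0.04 to 1.08 over them. Fabp6 was at 66.6 and 46.7 against 95.2 and 83.0 CPM (0.66 ± 0.14, adjusted p = 0.0867) and Fabp2 at 598 and 689 against 1001 and 878 CPM (0.54 ± 0.12, adjusted p = 0.0992). DESeq2 called both, Fabp6 (0.67, 0.00342) and Fabp2 (0.55, 0.000445), and without a filter on low counts both passed, as did Fabp1 (1.40, 7.97e-37) and Rbp7 (0.64, 3.97e-07). The genotypes overlapped for Fabp1 (83.5 to 380 CPM in Lgr5+WT, 245 to 1020 CPM in Lgr5+Setdb1KO) and for Rbp7. The unfiltered fit pools the spread over genes of low counts too, so its p-values do not measure the spread of these genes between libraries. Leaving out 1 library let Fabp6 pass without Lgr5+WT replicate 1 (0.88, 0.00257), Lgr5+Setdb1KO replicate 1 (0.58, 0.00319) or replicate 2 (0.74, 0.00467). Fabp2 passed without Lgr5+WT replicate 2 (0.70, 0.00693) or Lgr5+Setdb1KO replicate 2 (0.62, 0.0427), Fabp1 without the same libraries (2.96, 0.0117 and 2.09, 0.00467), and Rbp7 without Lgr5+Setdb1KO replicate 1 (1.08, 2.34e-08).

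The paper describes the mature enterocytes of this sort as co-purifying cells without GFP, so they need not have lost Setdb1. Setdb1 itself differed by -0.40 ± 0.39 in the enterocyte class (adjusted p = 0.799), -0.91 ± 0.26 in stem (0.199) and -0.96 ± 0.18 in dividing (0.0661), none past the test. Its enterocyte difference minus its stem difference was 0.51 ± 0.43 (adjusted p = 0.815). As said above, these tags do not check the deletion. In the enterocyte class none of 6 tested members passed, where 1.08% of all genes tested did. Rbp2 was at 4761 and 6145 against 13096 and 8109 CPM (0.96 ± 0.20, adjusted p = 0.0634) and Fabp2 at 2904 and 3164 against 8017 and 4269 CPM (1.02 ± 0.22, adjusted p = 0.0725). Fabp6 was at 1045 and 703 against 2543 and 1173 CPM (1.10 ± 0.28, adjusted p = 0.134). Without a filter on low counts, Fabp2 (1.03, 2.20e-27), Rbp2 (0.96, 2.64e-27), Fabp6 (1.10, 1.29e-24) and Fabp1 (0.57, 2.76e-09) passed. The genotypes overlapped for Fabp1, at 4010 to 8678 CPM in Lgr5+WT and 6516 to 12343 CPM in Lgr5+Setdb1KO. These p-values too rest on a spread pooled with genes of low counts. Fabp2 also passed with the class limits doubled (1.04, 0.0352) and Rbp2 with them halved (1.02, 0.0366). Without Lgr5+Setdb1KO replicate 2, Fabp6 (1.56, 3.68e-15), Fabp2 (1.41, 1.86e-11), Rbp2 (1.27, 1.82e-08) and Fabp1 (0.95, 0.000399) passed as higher and Rbp7 as lower (-1.01, 1.13e-07).

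The marker intervals gave a further description of Rbp2 and Fabp2. In each of the 6 intervals from 0 to 160 enterocyte marker UMIs per 10000, both Lgr5+Setdb1KO libraries lay above both Lgr5+WT libraries for Rbp2 and for Fabp2, whereas they did so in 1 of 6 for Fabp1, Fabp5 and Fabp6 and in none for Rbp4 and Rbp7. They lay below both Lgr5+WT libraries in 2 intervals for Fabp5, in 1 for Fabp6 and in 1 for Rbp4. Rbp2 in the lowest interval was at 10.5 and 20.8 CPM in Lgr5+WT and at 44.9 and 47.8 CPM in Lgr5+Setdb1KO. Free RNA at the share estimated for the stem class (3.02% to 4.90%) would alone give 10.9 and 20.8 against 31.5 and 31.7 CPM of Rbp2, and the WT levels of that interval are no higher than this background. With free RNA subtracted at that share Rbp2 and Fabp2 kept 6 of 6 intervals, and at 5% Rbp2 had 5, without the lowest, and Fabp2 6. In the interval from 80 to 160 it was at 11711 and 10695 against 21448 and 14067 CPM. Fabp2 in the interval from 10 to 20 was at 557 and 522 against 788 and 743 CPM. The 6 intervals come from the same 4 libraries and are not independent. They match barcodes by enterocyte markers alone. Stem markers at 0 to 5 were at 67.6 and 60.1 per 10000 UMIs in Lgr5+WT against 46.7 and 38.6 in Lgr5+Setdb1KO. At 10 to 20 they were at 52.7 and 50.4 against 36.2 and 28.4, and at 40 to 80 the genotypes overlapped (2.01 and 4.02 against 0.93 and 3.20). The part of this in the levels was not tested.

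Genes of the pathways around the members were taken from fixed lists. Of all genes tested, 1.34% were called over all barcodes, 0.834% in stem, 0.614% in dividing and 1.08% in enterocyte. Mogat2, which makes diacylglycerol from absorbed monoacylglycerol, was higher in Lgr5+Setdb1KO over all barcodes (1.13 ± 0.11, adjusted p = 0.011) and in the stem (1.66 ± 0.18), dividing (1.37 ± 0.15) and enterocyte (0.62 ± 0.11) classes. It belongs to the list of 23 genes of fatty acid uptake and triglyceride synthesis, none of the others tested (20 to 23 with it) passed in any of the 4 comparisons, and the list's median difference lay between -0.08 and 0.26. Acaa1b, a peroxisomal thiolase, was the only gene called of the 19 or 20 tested of fatty acid oxidation and ketogenesis (3.67 ± 0.34 over all barcodes). Of the 12 to 15 retinoid genes tested, Aldh1a1, which makes retinoic acid, was higher over all barcodes (1.47 ± 0.23) and in enterocytes (1.14 ± 0.19), Adh1 over all barcodes (1.03 ± 0.13), in stem (0.88 ± 0.15) and in enterocytes (0.68 ± 0.10), and Ttr, which binds Rbp4 in plasma, in stem (0.92 ± 0.17). None of the 7 or 8 bile acid genes tested was called in any of these 4 comparisons.

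In the lineage-traced sort the enterocyte genes were lower in the libraries labelled Setdb1-KO, and these libraries also held few enterocyte class barcodes. Over all kept barcodes, 4 of 7 members passed as lower, where 8.73% of all genes tested differed. Fabp6 was at 762 and 1260 CPM in WT and 124 and 175 CPM in Setdb1-KO (-3.28 ± 0.42, adjusted p = 0.000215). Rbp2 was at 1410 and 1536 against 219 and 397 CPM (-2.75 ± 0.42, adjusted p = 0.000904). Fabp2 was at 1925 and 2740 against 838 and 1199 CPM (-1.71 ± 0.40, adjusted p = 0.0181) and Fabp1 at 1105 and 1414 against 515 and 773 CPM (-1.48 ± 0.38, adjusted p = 0.0303). No library of the 2 genotypes overlapped for these 4 genes, and the share of all genes tested without overlap was not counted. Fabp2 missed the threshold without WT replicate 1 (-2.0, 0.0889) or 2 (-1.37, 0.347), and so did Fabp1 (-1.70, 0.161 and -1.23, 0.376). The enterocyte class held 11.7% and 5.80% of kept barcodes in WT and 0.56% and 1.28% in Setdb1-KO. Fabp5 was at 13 and 11.5 against 18 and 28.6 CPM, Rbp7 at 24.0 and 27.7 against 40.8 and 58.9 CPM and Rbp4 at 11.8 and 9.90 against 6.67 and 10.7 CPM, none past the test. Without Setdb1-KO replicate 1, Fabp5 (0.83, 0.00843) and Rbp7 (0.80, 0.0203) passed as higher, and Rbp4 passed as lower without replicate 2 (-1.38, 0.00073) and without a filter on low counts (-0.75, 0.0292).

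In the lineage-traced sort Fabp6 and Rbp2 were also lower in the stem and dividing classes, and Fabp1 and Fabp2 in the stem class. The estimated share of free RNA in both classes was larger in WT than in Setdb1-KO. In the stem class 4 of 5 tested members passed as lower in Setdb1-KO, where 1.48% of all genes tested differed. Fabp6 was at 427 and 286 CPM in WT against 15.3 and 32.8 CPM (-3.87 ± 0.32), Rbp2 at 325 and 320 against 43.2 and 52.1 CPM (-2.80 ± 0.30), Fabp1 at 362 and 278 against 93.3 and 121 CPM (-1.65 ± 0.28) and Fabp2 at 776 and 1055 against 387 and 532 CPM (-1.05 ± 0.25). All of these WT stem levels lay below the same library's free RNA (686 to 2681 CPM for these 4 genes). Free RNA made up an estimated 21.9% and 25.7% of the UMIs of these sums, so a level below it can still exceed the background. With free RNA subtracted at the Paneth marker estimate, Fabp1 kept its size without its call (-1.59, adjusted p = 0.421) and Fabp2 was near 0 (-0.14, 0.986). Fabp6 and Rbp2 did not pass the filter on low counts over the 4 libraries and were not tested. Fabp1 also missed the threshold without WT replicate 1 (-1.42, 0.0735) and Fabp2 without WT replicate 1 (-1.26, 0.209) or 2 (-0.81, 0.778) and without a filter on low counts (-0.95, 0.0534). In the dividing class Fabp6 was at 177 and 309 against 22.9 and 79.4 CPM (-2.01 ± 0.33) and Rbp2 at 469 and 363 against 81.9 and 194 CPM (-1.47 ± 0.32), and these 2 of 6 passed, where 1.54% of all genes tested differed. Fabp1 (-0.30 ± 0.31, adjusted p = 0.942) and Fabp2 (-0.40 ± 0.31, 0.889) did not pass there. With free RNA subtracted at the Paneth marker estimate Fabp6 (-1.16, 0.841) and Rbp2 (-1.19, 0.640) were no longer called. With DESeq2 both calls were lost at nearly the same size (-2.08 and -1.46), and they were also lost without WT replicate 2 (Fabp6 -1.60, 0.0804, and Rbp2 -1.65, 0.185), and Rbp2 also without WT replicate 1 (-1.29, 0.630). Without Setdb1-KO replicate 1, Fabp5 (1.02, 0.0258) and Rbp7 (0.95, 0.0122) passed as higher.

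Inside the lineage-traced enterocyte class the members moved in different directions. Fabp6 was at 5601 and 6074 CPM in WT and 1489 and 1129 CPM in Setdb1-KO (-2.21 ± 0.42, 4.62-fold lower, adjusted p = 4.27e-06), and Fabp2 at 12337 and 11152 against 4667 and 5522 CPM (-1.20 ± 0.42, adjusted p = 0.0249). Rbp7 was higher, at 13.1 and 27.9 CPM in WT and 174 and 87.0 CPM in Setdb1-KO (2.63 ± 0.44, 6.17-fold, adjusted p = 1.02e-07). These sums hold few Rbp7 UMIs, namely 4.14% and 6.70% of 459 and 224 in WT and 3.54% and 2.41% of 367 and 1574 in Setdb1-KO. Fabp1, at 7994 and 6711 against 17260 and 13228 CPM, did not pass (1.01 ± 0.43, adjusted p = 0.0676), and neither did Rbp2, at 11624 and 9049 against 5955 and 9031 CPM (-0.44 ± 0.42, adjusted p = 0.462). The WT and Setdb1-KO libraries did not overlap for Fabp1, Fabp2, Fabp6 or Rbp7, without a count over all genes tested to set beside this. Of all genes tested here 24.4% differed, and 3 of 5 tested members did.

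These enterocyte classes differ in more than genotype. Enterocyte markers were at 148 and 134 per 10000 UMIs in WT and 62.4 and 62.7 in Setdb1-KO, and Setdb1-KO replicate 1 had 27 barcodes. Fabp6 missed the threshold without WT replicate 2 (-2.21, 0.0736), and Fabp2 without WT replicate 1 (-1.18, 0.417) or 2 (-1.33, 0.421) and with a mitochondrial limit of 10% (-1.13, 0.0510). Fabp1 passed without Setdb1-KO replicate 1 (1.06, 0.000991), with barcodes of 2 classes left out (0.92, 0.0249), with RLE normalization (0.98, 0.0389) and with a replicate block (1.01, 0.0312), and Rbp2 as lower without Setdb1-KO replicate 2 (-1.15, 0.0183). In the interval of 40 to 80 enterocyte marker UMIs per 10000, which holds 119 and 34 barcodes of WT and 17 and 112 of Setdb1-KO, Fabp6 was at 4405 and 4400 against 80.7 and 528 CPM, Rbp7 at 28.5 and 59.0 against 210 and 92.8 CPM and Fabp1 at 6884 and 5839 against 17170 and 12593 CPM. Fabp2, at 6955 and 5994 against 4002 and 5020 CPM, was closer within that interval. In the next interval, from 80 to 160, with 402 and 89 barcodes of WT and only 10 and 12 of Setdb1-KO, Fabp6 was at 7409 and 8485 against 8415 and 6809 CPM, so the genotypes overlapped there. Rbp7, at 8.53 and 10.7 against 0 and 54.0 CPM, overlapped too. No test was run on the intervals. Fabp6-rich barcodes made up 18.2% and 20.4% of the enterocyte class in WT and 7.41% and 6.87% in Setdb1-KO, while Fabp1/Rbp2-rich barcodes made up 63.2% and 60.4% and then 66.7% and 67.2%.

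Other bile acid genes were lower together with Fabp6 in this class. Of 6 tested, 4 passed as lower: Abcc2, an apical exporter (-3.29 ± 0.47), Slc51b (-2.26 ± 0.42), Slc10a2 (-1.64 ± 0.57) and Slc51a (-1.17 ± 0.40), and none passed as higher. The median of the 6 was -1.41, against -0.04 over all genes tested. Of 16 genes of fatty acid uptake and triglyceride synthesis tested, 9 were lower, among them Slc27a4, a fatty acid transporter (-2.24 ± 0.46), and Acsl5, an acyl-CoA synthetase (-1.59 ± 0.40). Of 16 oxidation genes 3 were lower, and Eci1, a mitochondrial isomerase, was higher (1.55 ± 0.39), a share near the 24.4% of all genes tested. Of 6 retinoid genes Aldh1a1 was lower (-1.22 ± 0.41) and Adh1 higher (0.97 ± 0.37). Over all lineage-traced barcodes 13 of 23 uptake and triglyceride genes, 5 of 8 bile acid genes and 5 of 15 retinoid genes were lower and none of them higher, where 8.73% of all genes tested differed. Of 20 oxidation genes 3 were lower, among them Acaa1b (-4.56 ± 0.35), and Acot1, an acyl-CoA thioesterase, was higher (1.58 ± 0.27). Mogat2 was at -2.68 ± 0.29.

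**Figure D5:**
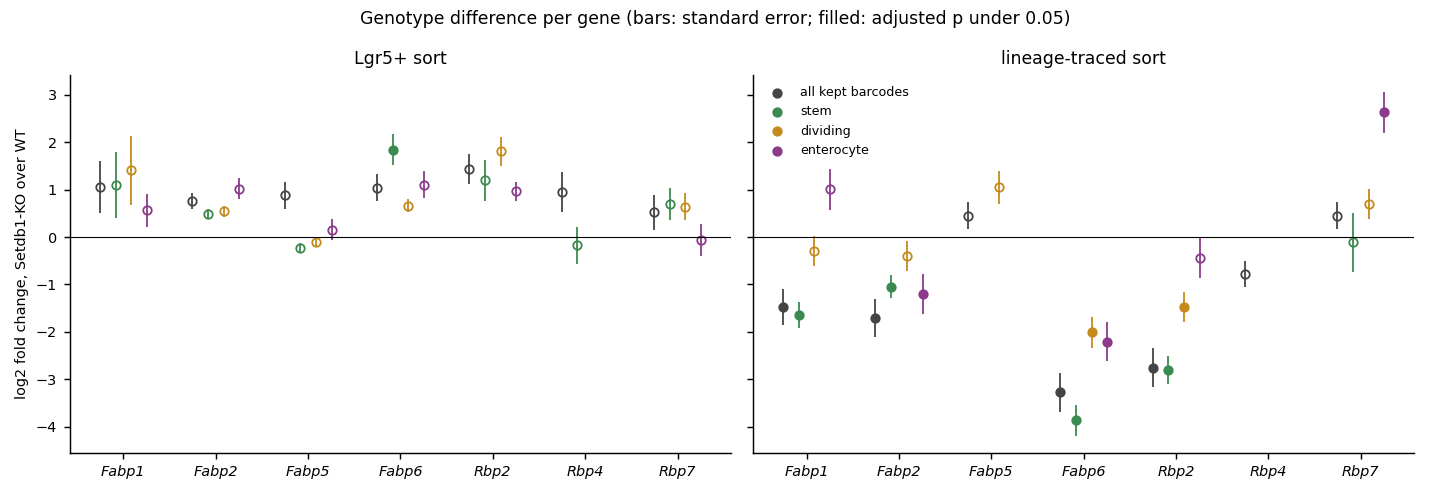
Fitted log2 difference, Setdb1-KO minus WT, with its standard error for each member in each class and over all kept barcodes of both sorts, with filled points where the adjusted p is under 0.05. Over all barcodes the Lgr5+ points lie above 0 (0.52 to 1.44) and those of Fabp1, Fabp2, Fabp6 and Rbp2 in the lineage-traced sort lie below it (-3.28 to -1.48).

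The difference between the sorts was tested itself. Over all kept barcodes the genotype effect in the lineage-traced sort was lower than in the Lgr5+ sort for Fabp6 (-4.29 ± 0.52, adjusted p = 0.000351), Rbp2 (-4.16 ± 0.56, 0.000703) and Fabp2 (-2.45 ± 0.45, 0.00568), 3 of 7 members, where 7.58% of all genes tested differed. Fabp1 did not pass (-2.50 ± 0.72, adjusted p = 0.059) but did without Lgr5+WT replicate 2 (-3.45, 0.0157), Lgr5+Setdb1KO replicate 2 (-3.00, 0.0221) or lineage-traced Setdb1-KO replicate 2 (-2.99, 0.0375), and Rbp4 passed without Lgr5+Setdb1KO replicate 2 (-2.23, 0.00677). In the enterocyte class Fabp6 (-3.31 ± 0.48, adjusted p = 5.90e-06), Fabp2 (-2.22 ± 0.52, 0.00371) and Rbp7 (2.73 ± 0.57, 0.00118) differed between the sorts, 3 of 6 tested, where 9.34% of all genes tested did. Fabp2 missed the threshold without Lgr5+WT replicate 1 (-2.18, 0.0515) or Lgr5+Setdb1KO replicate 1 (-1.76, 0.113), and Rbp7 without lineage-traced Setdb1-KO replicate 1 (2.55, 0.0581) or 2 (2.85, 0.293). Rbp2 passed without lineage-traced WT replicate 2 (-1.79, 0.0101) or lineage-traced Setdb1-KO replicate 2 (-2.28, 0.00572). The sorts also differ in reporter, depth, free RNA and, by the paper's account, in whether their mature enterocytes carried GFP. These cannot be told apart from the sort.

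The genes whose levels were most like each member were ranked by Pearson's r over 56 sums of 1 library and 1 class, for 11033 genes. The sums share libraries and classes, so r is a description. Rbp4 was most like Bex2 (0.98), Tac1 (0.97) and Tph1 (0.97), the last 2 enteroendocrine markers that helped to place the barcodes, and Fabp5 was most like Nme9 (0.94) and Gfra3 (0.93). Fabp6 was most like Slc51b (0.86), Cyp3a13 (0.84) and Gsta1 (0.84). Rbp2 was most like Apoc3 (0.88), Aldh1a1 (0.86) and Apoa1 (0.86), where the apolipoproteins are parts of the particles that leave the enterocyte. Fabp1 was most like Cst6 (0.90), Fabp2 like Clec2h (0.88), an enterocyte marker, and Rbp7 like Pycard (0.81) and Car4 (0.79). Among the members the highest r were those of Fabp5 with Rbp4 (0.89), Fabp2 with Rbp2 (0.77) and Fabp1 with Rbp2 (0.74), and Fabp6 had 0.70 with Fabp2, 0.64 with Fabp1 and 0.61 with Rbp2.

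The pathway lists put the enterocyte step of the members in context. From dividing to enterocyte in Lgr5+WT, all 8 tested bile acid genes were higher, led by Slc51b (4.42 ± 0.14) and Slc51a (3.76 ± 0.12). Of 14 retinoid genes tested 8 were higher and 1 lower, led by Aldh1a1 (4.30 ± 0.19), Rdh7 (3.32 ± 0.12) and Adh1 (3.07 ± 0.10). Of 23 genes of uptake and triglyceride synthesis 13 were higher and 2 lower, led by Mogat2 (3.98 ± 0.10) and Mttp (2.98 ± 0.11). Of 19 oxidation genes 17 were higher and 2 lower. The shares of the retinoid and uptake lists that differed lie near the 56.8% of all genes tested. The medians of the 4 lists were 2.30, 1.05, 1.12 and 1.19, against -0.05 over all genes tested and 2.45 for the 7 members.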

How the data were processed

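UMI counts of each gene in every barcode, before any filter, were deposited by the authors, made with Cell Ranger 6.1.1 per the labels, on mm10. Neither normalization nor cell filtering was applied by them, and the values were whole numbers. The other assays of the series were not used here. Total UMIs per library ranged from 16881518 to 81876035.

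Kept barcodes were placed by marker UMIs per 10000 UMIs: at least 20 for stem and dividing, 40 for enterocyte, 500 goblet, 1000 Paneth, 100 enteroendocrine and 25 for tuft and T cell, with at least 3 UMIs and above the 99.9% Poisson quantile of free RNA (barcodes of 10 to 100 UMIs). These limits were set after the marker shares had been seen, without the members' values. No doublet caller was run. A barcode over several limits went to dividing or enterocyte before stem. It went to a goblet, Paneth, enteroendocrine, tuft or T cell class before stem or dividing. Between enterocyte and any class but stem, and among those other classes, the class it exceeded most was taken. An alternative leaves out barcodes of 2 differentiated classes. UMIs were summed per library and class (sums of at least 20 barcodes) and tested with edgeR 4.0.16 (quasi-likelihood, TMM, filterByExpr, R 4.3.3), adjusted over all tested genes, at 0.05. Class steps had the library as a block and are those of WT. Named were all members, the pathway genes called, up to 4 a list, and the 3 genes most like each member. Alternatives were DESeq2 1.42.0, other limits, filters and normalization, free RNA subtraction and each library left out. Free RNA subtraction at the Paneth marker estimate and over the marker intervals, and the stem fit without Fabp6-rich barcodes, were chosen after seeing the data. The members and lists were chosen with earlier results of these data known. Levels carry counting error, and their precision follows from 27 to 2552 barcodes per axis class. Some withheld items are not reported here.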

Additional observations from a re-analysis of the deposited data

Results flagged for a closer look

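The genotype effect differed between the lineage-traced and the Lgr5+ sort, by the interaction term of edgeR's quasi-likelihood test, Benjamini-Hochberg adjusted, in 7 results. Over all kept barcodes the lineage-traced effect minus the Lgr5+ effect was -4.29 for Fabp6, -4.16 for Rbp2, -2.45 for Fabp2 and 1.09 for Setdb1 on the log2 scale. In the enterocyte class it was -3.31 for Fabp6, -2.22 for Fabp2 and 2.73 for Rbp7. Beside these values, the enterocyte class held 11.7% and 5.80% of kept barcodes in lineage-traced WT, 0.56% and 1.28% in lineage-traced Setdb1-KO, 6.86% and 7.53% in Lgr5+WT and 10.2% and 8.31% in Lgr5+Setdb1KO. Enterocyte markers within the class were at 134 to 148 per 10000 UMIs in lineage-traced WT and at 62.4 to 71.0 in the 6 other libraries. The part of these differences in the result was not tested.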

How the results depend on the processing

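The signs and calls of the members' comparisons were recomputed under each alternative. A change of sign where neither value was called is counted here as kept, as for Rbp7 over all Lgr5+ barcodes (0.52, and down to -0.35). Leaving out 1 library at a time, which leaves a group with 1 library assumed to vary like the others, kept sign and call in 407 values, added a call in 48, lost 1 in 31 and turned 2. The other alternatives kept them in 690 values, added a call in 42, lost 1 in 20 and turned 1, the dividing to enterocyte step of Rbp7, at -0.48 with class limits doubled. With 1 library left out, the lineage-traced stem to dividing step of Fabp6 ranged from -1.23 to 0.080 and its enteroendocrine minus stem difference from -0.35 to 2.51. The cause of these changes was not tested.

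Counts of called genes over all tested genes moved more. In Lgr5+Setdb1KO against Lgr5+WT over all barcodes (183 genes) they were 35 without a filter on low counts, 488 with DESeq2 and 51 with a replicate block, and 65 to 527 with 1 library left out. In stem (95) they were 154 at a mitochondrial limit of 10%, 429 with the block and 175 to 406 with 1 library left out. In dividing cells (70) they were 633 without the filter, 106 with DESeq2, 45 with the block and 180 to 356 with 1 library left out. In enterocytes (96) they were 35 with limits doubled, 378 without the filter, 184 with the block and 10 to 385 with 1 library left out. In the lineage-traced sort over all barcodes (1066) they were 652 with DESeq2, 2579 with the block and 586 to 2449 with 1 library left out. In stem (87) they were 32 with free RNA subtracted at the Paneth estimate, 39 with DESeq2 and 39 to 117, and in dividing cells (115) 45, 60 and 54 to 467 under the same settings. In enterocytes (1051) they were 1739 with limits halved, 684 without the filter, 250 with DESeq2 and 226 to 1396 with 1 library left out. Class steps gave 1862 to 4334 (3976) for stem to dividing in the Lgr5+ sort, 58 to 352 (380), or 228 from WT libraries alone, in the lineage-traced sort and 1534 to 4129 (3880) for dividing to enterocyte there. Between the sorts the counts were 529 to 2118, or 1729 with the block, over all barcodes (1045) and 170 to 1273 in enterocytes (849).

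Replicate numbers were not shown to pair the libraries: deviations of same-numbered libraries correlated by 0.0017 to 0.122 in the Lgr5+ and by 0.0908 to 0.576 in the lineage-traced sort, with 2 pairs each. Under the block Fabp2, Rbp2 and Fabp6 were called in Lgr5+ enterocytes (0.96, 0.94 and 1.02) and Fabp2 and Rbp2 in Lgr5+ stem (0.49 and 1.40). In the lineage-traced sort it called Rbp4 over all barcodes (-0.86), Fabp5 in dividing cells (1.14) and Fabp1 in enterocytes (1.01), and between the sorts Fabp1 over all barcodes (-2.60) and Rbp2 in enterocytes (-1.46). RLE normalization moved the median of all genes from 0.04 to 0.15 in enteroendocrine minus stem and changed the sign of no member's called value. Doubled limits could not be run in lineage-traced enterocytes, nor could the upper part of their marker share, since 2 libraries had enough barcodes. With 27 barcodes in 1 enterocyte class and median depths near 1000 UMIs, low genes such as Rbp4 were below what the lineage-traced sums can resolve.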

Other observations

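A few T cell class barcodes carried Fabp6. In Lgr5+WT replicate 1 this class, of 26 barcodes, had Fabp6 at 4378 CPM, and in Lgr5+WT replicate 2, where it has 20 barcodes, Fabp6 was at 0 CPM. Fabp1 was at 36.6 and 524 CPM and Rbp2 at 0 and 661 CPM in the same sums. These sums rest on 359 and 0 Fabp6 UMIs.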
